A study of Mus musculus with 28 samples.

Results

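The genes described here are 10 members of the Cyp2c family of cytochrome P450 enzymes on mouse chromosome 19: Cyp2c55, Cyp2c29, Cyp2c38, Cyp2c39, Cyp2c40, Cyp2c69, Cyp2c37, Cyp2c54, Cyp2c50 and Cyp2c44. They were taken by symbol from 3 tables of liver expression that hold 20416 genes each, and all 10 passed the filter on low values in every table. The series compared livers of male C57BL/6 mice in 2 models of non-alcoholic steatohepatitis, fatty liver with inflammation, by stranded poly(A) RNA sequencing. The first table held 4 livers from mice on a methionine- and choline-deficient diet (MCD) and 4 from mice on the matched low-fat control diet (CD), with a duration of 4 weeks in the titles and 5 weeks in another label. The other tables held the STAM model, in which streptozotocin, a toxin of pancreatic beta cells, is given on postnatal day 2 and a high-fat diet follows from week 4. They had 5 STAM livers and 5 livers of control-diet mice (Ctrl) at 4 weeks of age and 5 of each at 10 weeks. Labels call the 4-week STAM livers high-fat fed too, although that is the week in which the design starts the diet, and they do not say what vehicle, if any, the Ctrl mice received. The age of the MCD and CD mice is not in the labels.

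Cyp2c enzymes sit in the endoplasmic reticulum membrane of hepatocytes and use electrons from P450 reductase to insert oxygen into drugs, steroids and unsaturated fatty acids. Several mouse members turn arachidonic acid into epoxyeicosatrienoic acids, lipid mediators that soluble epoxide hydrolase inactivates, and others hydroxylate the same fatty acid. Many of the genes respond to the xenobiotic receptors CAR and PXR, and some are expressed at different levels in male and female livers under the control of growth hormone pulses.

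Deposited values were log2 CPM (reads of a gene per M reads of its library), which the authors scaled within each table. Each model was therefore tested against its own control within a table, and only differences between such effects were tested across tables. Levels of different tables are set side by side only as a description. Recovered depth was 16.2 to 25.9 M reads per library. The scaling factors separated the groups of every table. They were 1.11 to 1.23 in MCD and 0.832 to 0.899 in CD, 1.008 to 1.045 in STAM and 0.956 to 0.990 in Ctrl at 4 weeks, and 1.05 to 1.16 in STAM and 0.878 to 0.939 in Ctrl at 10 weeks. Scaling by total reads instead moved the median log2 fold change of all genes to 0.49 for MCD against CD, where it was 0.07, to 0.09 at 4 weeks, where it was 0.01, and to 0.33 at 10 weeks, where it was 0.05. Among the genes called in each comparison, total-read scaling gave a share of higher ones of 86.1% for MCD against CD, 83.7% at 4 weeks and 88.0% at 10 weeks. The authors' scaling gave 52.9%, 66.6% and 53.0%, and quantile normalization 49.8%, 59.8% and 45.7%. In 5 groups 1 library differed more from each of the others than those did from one another, by the chi-square of its read counts per degree of freedom. It was 73.9 to 81.1 for Ctrl replicate 1 of 4 weeks, against 12.8 to 28.7 among the other controls, and 68.6 to 139.8 for Ctrl replicate 1 of 10 weeks, against 17.8 to 44.4. The gaps were smaller for CD replicate 4, MCD replicate 4 and STAM replicate 5 of 10 weeks, and the members are also given without these libraries. The tissue label fitted the hepatocyte markers: the summed level of 8 hepatocyte genes was 51091 to 166889 CPM over the 28 libraries. Of 5 intestinal markers Cdx2 was at 0 in every library, but the list summed to 32.9 to 156 CPM. At 10 weeks that sum was 141 to 156 CPM in STAM against 66.7 to 88.9 CPM in Ctrl. In whole liver, fewer hepatocytes and less RNA per hepatocyte cannot be told apart.

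On the mm10 build, 9 of the 10 genes form a cluster on chromosome 19 that starts with Cyp2c55 at 39007019 to 39042687 and ends with Cyp2c50 at 40089679 to 40113955. Cyp2c44, which RefSeq files as Cyp2c23, lies apart at 44005022 to 44029247. Within the cluster the genes run in both directions, and the neighbours Cyp2c65, Cyp2c66, Cyp2c67, Cyp2c68 and Cyp2c70, which are not members here, lie among or beside them. Some are close copies: the transcripts of Cyp2c40 and Cyp2c69 were 97.8% identical over their aligned bases, those of Cyp2c37 and Cyp2c50 95.8%, Cyp2c50 and Cyp2c54 94.98%, and Cyp2c38 and Cyp2c39 93.8%. How the authors' counting treated reads shared by such copies was not stated in the labels. Of the 100-base words of its transcript, Cyp2c40 shared 44.1% with another Cyp2c transcript, Cyp2c69 36.3%, Cyp2c50 9.40%, Cyp2c54 7.59% and Cyp2c37 4.70%, and the other 5 members none. Of the 50-base words, the shares were 72.1% for Cyp2c40, 54.8% for Cyp2c69, 30.7% for Cyp2c50, 30.1% for Cyp2c37, 25.7% for Cyp2c54, 11.4% for Cyp2c39, 7.45% for Cyp2c38 and 0.519% for Cyp2c29, and none for Cyp2c44 and Cyp2c55. The effect of shared reads on the values was not tested, and those of Cyp2c40, Cyp2c69, Cyp2c37, Cyp2c50 and Cyp2c54 are uncertain in this respect.

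Promoters of 8 members were in the RefSeq table of GRCm38.p6, and Cyp2c54 and Cyp2c44 had no entry. They are shown for the pairs whose expression is compared, because the copies are alike there too. The promoters of Cyp2c40 and Cyp2c69 were 98.9% identical over 270 aligned bases, those of Cyp2c37 and Cyp2c50 90.1% over 292, and those of Cyp2c38 and Cyp2c39 88.2% over 271. Each is written 5′ to 3′ on the strand of its gene, with capitals for the letters TATAAA, the TATA box; the first pair shows 250 bases before and 50 after the start, and the others 130 before and 20 after it.
Cyp2c40 (chr19:39812765-39813064, minus strand): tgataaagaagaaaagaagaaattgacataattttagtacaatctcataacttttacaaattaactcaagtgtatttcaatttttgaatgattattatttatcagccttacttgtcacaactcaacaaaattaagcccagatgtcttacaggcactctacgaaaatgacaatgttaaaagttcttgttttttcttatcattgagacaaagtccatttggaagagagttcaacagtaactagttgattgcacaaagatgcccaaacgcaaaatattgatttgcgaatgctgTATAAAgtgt
Cyp2c69 (chr19:39886720-39887019, minus strand): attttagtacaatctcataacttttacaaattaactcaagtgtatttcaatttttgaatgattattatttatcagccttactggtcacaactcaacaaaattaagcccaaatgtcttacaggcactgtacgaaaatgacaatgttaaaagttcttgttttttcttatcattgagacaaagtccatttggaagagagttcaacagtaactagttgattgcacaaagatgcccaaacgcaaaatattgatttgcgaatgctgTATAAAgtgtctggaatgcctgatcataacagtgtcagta
Cyp2c37 (chr19:39992294-39992443, plus strand): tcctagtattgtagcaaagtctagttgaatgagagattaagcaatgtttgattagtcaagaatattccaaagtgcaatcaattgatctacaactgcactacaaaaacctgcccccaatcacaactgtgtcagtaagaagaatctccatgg
Cyp2c50 (chr19:40089549-40089698, plus strand): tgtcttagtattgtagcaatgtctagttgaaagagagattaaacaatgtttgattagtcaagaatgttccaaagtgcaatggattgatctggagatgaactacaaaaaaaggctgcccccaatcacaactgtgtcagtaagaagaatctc
Cyp2c38 (chr19:39463056-39463205, minus strand): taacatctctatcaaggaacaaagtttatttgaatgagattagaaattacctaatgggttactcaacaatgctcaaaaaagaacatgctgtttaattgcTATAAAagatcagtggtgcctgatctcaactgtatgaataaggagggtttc
Cyp2c39 (chr19:39510692-39510841, plus strand): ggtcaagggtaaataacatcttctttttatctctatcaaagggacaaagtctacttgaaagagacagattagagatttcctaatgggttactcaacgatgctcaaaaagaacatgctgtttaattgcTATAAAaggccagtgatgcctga
Cyp2c29 (chr19:39286955-39287104, plus strand): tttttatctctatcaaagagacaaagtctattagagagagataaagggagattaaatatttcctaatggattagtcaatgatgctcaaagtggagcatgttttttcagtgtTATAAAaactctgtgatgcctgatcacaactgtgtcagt

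TATAAA was found in 6 of the 8 promoters, in Cyp2c29, Cyp2c38, Cyp2c39, Cyp2c40, Cyp2c55 and Cyp2c69, and in 14.2% of all 27025 promoters of the table. Its place relative to the annotated start differed, 31 bases before it in Cyp2c38 and 3 before it in Cyp2c39, 40 after it in Cyp2c40 and 10 after it in Cyp2c69, so the annotated starts of the pairs are offset from one another. AGGTCA, the hexamer bound by nuclear receptors, was found in 1 member, Cyp2c29, and in 16.04% of all promoters. It lies outside the window printed for that gene. The STAT5 motif TTCNNNGAA was found in none of the 8 and in 8.47% of all. The HNF1 palindrome was found in none of the 8 and in 0.0074% of all. Motifs were searched on both strands and a match is only a description of the letters.

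Per kilobase of transcript, the order of the members differed between the groups. In Ctrl livers of 10 weeks the highest was Cyp2c29, an arachidonic acid epoxygenase and a target of CAR, at 1174 ± 144 CPM per kb (SD, n = 5), above Cyp2c50 at 713 ± 108, and the ranges of these neighbours did not overlap. Cyp2c37, Cyp2c54 and Cyp2c44 followed at 354, 343 and 270.3 CPM per kb with overlapping ranges, and the lowest were Cyp2c55 at 3.83 and Cyp2c39 at 1.63. In CD livers Cyp2c50 at 312 ± 41.8 and Cyp2c44 at 296 ± 18.1 CPM per kb (SD, n = 4) led with overlapping ranges, and Cyp2c29 stood at 150.0 ± 80.4. MCD livers again had Cyp2c29 first, at 146 ± 26.4 CPM per kb, and Cyp2c50, Cyp2c37 and Cyp2c44 next, each overlapping its neighbour, with Cyp2c54 and Cyp2c69 last at 2.45 and 0.660. In STAM livers of 10 weeks Cyp2c50 at 154 ± 45.4 and Cyp2c44 at 146 ± 26.6 CPM per kb led, and Cyp2c29 followed at 76.8 ± 27.6, without overlap with Cyp2c44. At 4 weeks Cyp2c29 was first and Cyp2c50 second in both groups, at 589 ± 97.8 and 427 ± 29.3 CPM per kb in STAM, whose ranges overlapped, and at 1006 ± 143 and 506 ± 77.7 in Ctrl, whose ranges did not.

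**Figure D1:**
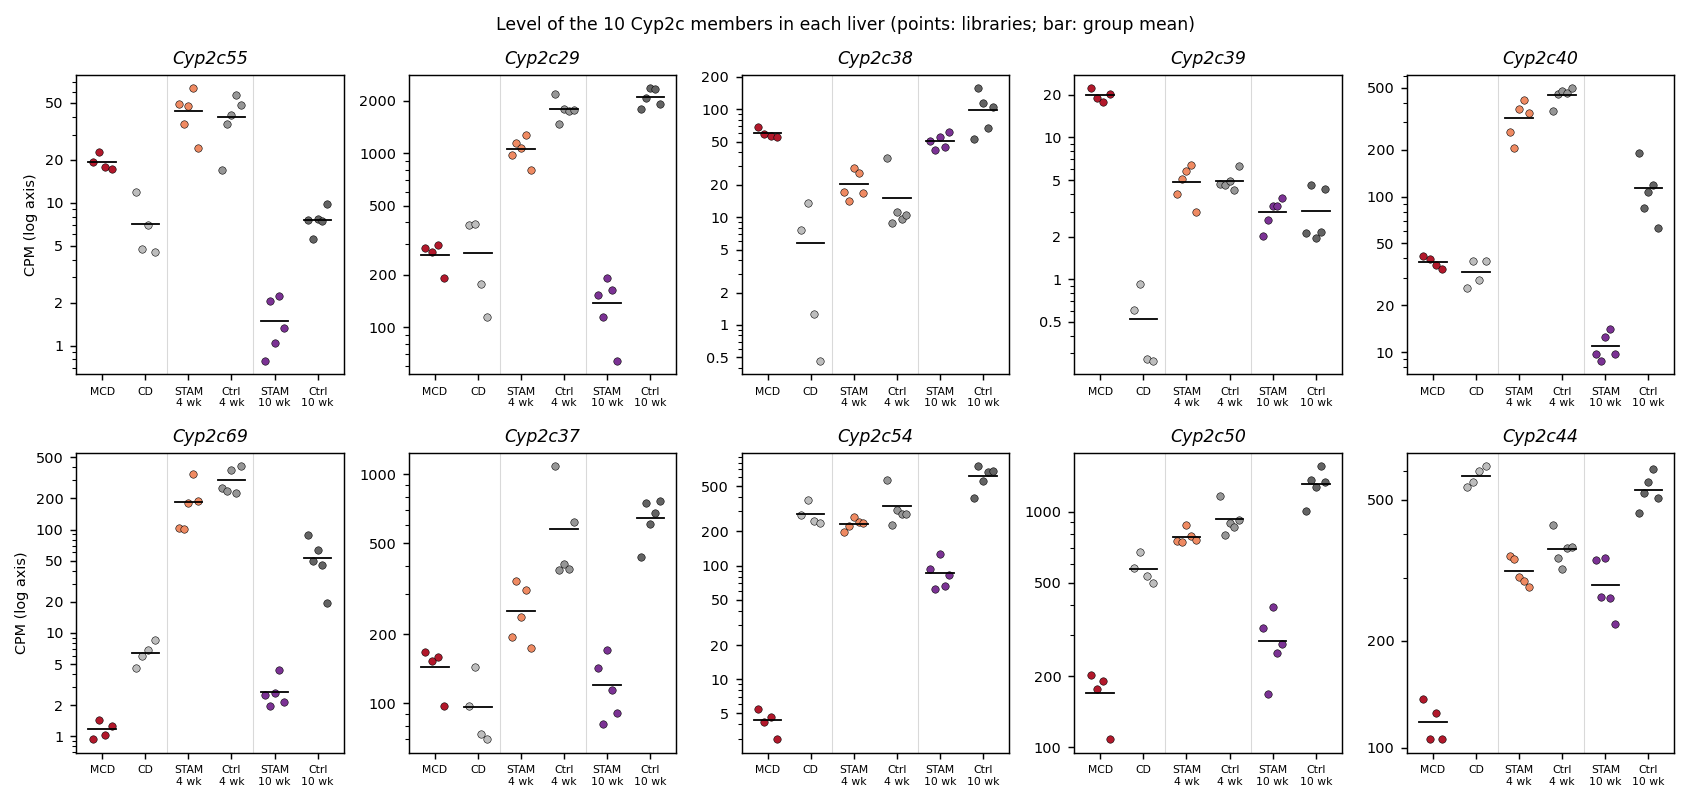
Each panel shows 1 member, in the order along the chromosome, with CPM on a log axis and a point per library in the 6 groups (bar: group mean). Levels are scaled within a table. Cyp2c54 lies at 2.99 to 5.50 CPM in MCD against 236 to 379 CPM in CD, and Cyp2c69 and Cyp2c40 are lower in all STAM libraries of 10 weeks than in any Ctrl library of that age.

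The comparison of MCD with CD asks how the diet model changed the liver transcriptome. The family split: of the 10 members, 4 fell, 3 rose and 3 were not called by limma at a Benjamini-Hochberg adjusted p under 0.05, where 42.7% of all 15312 genes tested were called, 22.6% higher and 20.1% lower. Their median log2 fold change was 0.18, beside 0.07 over all genes tested, while the single values ran from -6.04 to 5.41. The groups did not overlap for the 4 lower and the 3 higher members, as for 19.2% of all genes lower and 20.9% higher. Under total-read scaling 4 fell and 5 rose, where 7.98% of all genes were lower and 49.6% higher. Without CD replicate 4 the same 7 members were called, and without MCD replicate 4 those 7 and Cyp2c37.

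Cyp2c54, an epoxygenase of arachidonic and linoleic acid, fell the most. It was at 5.50, 4.19, 4.67 and 2.99 CPM in the 4 MCD livers, against 279.8, 379, 245 and 236 CPM in the 4 CD livers. Every MCD library lay far below every CD library, and Cyp2c54 was 65.9-fold lower (log2 fold change -6.04, SE 0.19, limma adjusted p = 3.66e-09). In reads, the MCD libraries held 95 to 140 of Cyp2c54 and the CD libraries 3533 to 7328. Cyp2c44, the epoxygenase studied most in kidney and blood vessels, was at 137, 106, 125 and 106 CPM in MCD against 544, 559, 602 and 619.8 CPM in CD, 4.93-fold lower (log2 fold change -2.30, SE 0.11, limma adjusted p = 2.05e-08). Its change had the smallest SE of the 4, and the diets were again in separate ranges. Cyp2c50, another epoxygenase, with the highest mean per kb among the members in CD livers, was at 202, 177, 191 and 109 CPM in MCD against 579, 676, 534 and 499 CPM in CD, 3.44-fold lower (log2 fold change -1.78, SE 0.18, limma adjusted p = 1.14e-05). Cyp2c69, a female-biased member, was at 0.944, 1.45, 1.02 and 1.26 CPM in MCD against 4.57, 5.94, 6.79 and 8.54 CPM in CD, 5.43-fold lower (log2 fold change -2.44, SE 0.23, limma adjusted p = 5.66e-06). It was a minor member in both diets, with 23 to 40 reads in the MCD libraries and 90 to 128 in the CD libraries. Cyp2c67, a near copy that is not a member, was at 885 to 1734 CPM in CD and 69.9 to 78.9 CPM in MCD. Its transcript was 97.5% identical to that of Cyp2c69, and both genes ranked the CD replicates in the same order. The part of Cyp2c67 reads in the Cyp2c69 value was not tested.

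The 3 members that rose were minor ones in CD livers. Cyp2c39, which hydroxylates retinoic acid and also acts on arachidonic acid, was at 22.2, 18.96, 17.7 and 20.2 CPM in MCD against 0.609, 0.930, 0.276 and 0.267 CPM in CD. The libraries of each diet stood in 2 separate ranges, with 399 to 643 reads in MCD and 4 to 18 reads in CD. Cyp2c39 was 42.4-fold higher (log2 fold change 5.41, SE 0.35, limma adjusted p = 4.02e-07). Cyp2c38, an epoxygenase, was at 68.7, 58.9, 57.2 and 55.4 CPM in MCD against 7.67, 13.6, 1.27 and 0.467 CPM in CD, 21.2-fold higher (log2 fold change 4.40, SE 1.05, limma adjusted p = 0.0139). The MCD libraries were close together while the CD libraries ranged from 7 to 263 reads, so the size of this change is the least precise of the family. Mean CPM was 60.0 in MCD and 5.75 in CD, a smaller ratio than the fold, which comes from mean log2 values. The authors' deposited log2 fold change for Cyp2c38 was 3.38. Cyp2c55, best known from the intestine and as a PXR-inducible hydroxylase, was at 19.2, 22.7, 17.8 and 17.2 CPM in MCD against 11.9, 4.75, 7.01 and 4.54 CPM in CD, 2.93-fold higher (log2 fold change 1.55, SE 0.26, limma adjusted p = 0.00071). Of 4 intestinal markers tested 2 rose in MCD, Vil1 and, under the authors' scaling but not under quantile normalization, Lgals4. The list summed to 105 to 140.1 CPM in MCD and 85.6 to 113 CPM in CD, and Cdx2 had no read; their part in the Cyp2c55 value was not tested.

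The members not called were Cyp2c29, Cyp2c37 and Cyp2c40. Cyp2c29 was at 284, 271, 298 and 193 CPM in MCD against 387, 394, 177 and 114 CPM in CD (log2 fold change 0.13, SE 0.41, limma adjusted p = 0.823, 95% interval -0.83 to 1.09). The MCD values lay inside the wide range of the CD values. Cyp2c37, which hydroxylates arachidonic acid and responds to CAR, was at 167, 154, 159 and 97.4 CPM in MCD against 97.9, 144, 73.3 and 69.96 CPM in CD (log2 fold change 0.62, SE 0.24, limma adjusted p = 0.067). MCD replicate 4 and CD replicates 1 and 2 made the groups overlap. Cyp2c37 passed the threshold under total-read scaling (log2 fold change 1.04, limma adjusted p = 0.00302) and under quantile normalization (0.84, adjusted p = 0.0154). It did so too without MCD replicate 4 (0.79, adjusted p = 0.0218) or CD replicate 2 (0.83, adjusted p = 0.00587). Cyp2c40, a female-biased arachidonic acid hydroxylase, was at 41.8, 39.98, 36.1 and 34.03 CPM in MCD against 25.8, 38.5, 28.96 and 38.5 CPM in CD (log2 fold change 0.22, SE 0.14, limma adjusted p = 0.216), and passed only under total-read scaling (0.65, adjusted p = 0.00112). Its transcript was 98.0% identical to that of Cyp2c68, which is not a member and was at 271 to 439 CPM in CD and 337 to 433 CPM in MCD. The part of Cyp2c68 reads in the Cyp2c40 value was not tested. Among the CD livers, replicates 1 and 2 were above replicates 3 and 4 for Cyp2c29, Cyp2c37, Cyp2c38, Cyp2c39, Cyp2c50 and Cyp2c54, and below them for Cyp2c44 and Cyp2c69.

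In the authors' deposited table of this comparison, 8 members had an adjusted p under 0.05, 4 higher and 4 lower, the additional one being Cyp2c37 with a log2 fold change of 0.58.

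The comparison of STAM with Ctrl at 4 weeks asks what the liver looked like at the age at which the high-fat diet starts. At that age 1 member fell, Cyp2c29, where 9.80% of all genes tested were called, 6.52% higher and 3.27% lower. The other 9 members were not called. Cyp2c29 was at 972, 1145, 1071, 1267 and 807 CPM in the 5 STAM livers, against 2186, 1469, 1796, 1743 and 1785 CPM in the 5 Ctrl livers. All STAM libraries were below all Ctrl libraries, 1.71-fold on average (log2 fold change -0.78, SE 0.13, limma adjusted p = 0.00245), and without Ctrl replicate 1 the log2 fold change was -0.70 (adjusted p = 0.00244). Cyp2c37 was at 196, 342, 238, 314 and 174 CPM in STAM against 1084, 384, 406, 387 and 619 CPM in Ctrl, groups that also did not overlap (log2 fold change -1.11, SE 0.32, limma adjusted p = 0.0619). Its highest value by far was Ctrl replicate 1, and without that library the log2 fold change was -0.85 with an adjusted p of 0.0429. The median log2 fold change of the 10 members was -0.35, beside 0.01 over all genes. An unadjusted limma p under 0.05 was found for 7 of the members and for 3660 of all 15312 genes tested. Groups did not overlap for 2 members, both lower, as for 3.67% of all genes lower and 6.38% higher.

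The other members gave smaller or less certain differences at 4 weeks. Cyp2c69 was at 103, 101, 183, 347 and 189 CPM in STAM against 253, 234, 379.7, 228 and 408 CPM in Ctrl (log2 fold change -0.81, SE 0.35, limma adjusted p = 0.198), with the groups overlapping. Cyp2c40 was at 260.4, 206, 367, 418 and 343 CPM in STAM against 357, 454, 477, 463 and 498 CPM in Ctrl (log2 fold change -0.53, SE 0.18, limma adjusted p = 0.0831). Without Ctrl replicate 1 the log2 fold changes were -0.86 (adjusted p = 0.221) for Cyp2c69 and -0.61 (adjusted p = 0.0536) for Cyp2c40. STAM replicate 4 was the highest STAM library for both, and without it the log2 fold changes were -1.08 for Cyp2c69 (adjusted p = 0.0446) and -0.64 for Cyp2c40 (adjusted p = 0.0405). Cyp2c38 was at 17.03, 14.2, 28.6, 25.6 and 16.7 CPM in STAM against 35.7, 8.76, 11.1, 9.53 and 10.6 CPM in Ctrl (log2 fold change 0.62, SE 0.39, limma adjusted p = 0.39). Ctrl replicate 1 alone lay above the STAM libraries, and without it Cyp2c38 was higher in STAM by 0.99 on the log2 scale (adjusted p = 0.00793). Cyp2c54, Cyp2c50 and Cyp2c44 differed by -0.46, -0.23 and -0.21 on the log2 scale, none of them called (adjusted p = 0.198, 0.174 and 0.166). Without Ctrl replicate 1 these were -0.25, -0.15 and -0.15 (adjusted p = 0.129, 0.239 and 0.246). Cyp2c55 had 0.18 (95% interval -0.63 to 0.99) and Cyp2c39 -0.07 (95% interval -0.51 to 0.36). Without Ctrl replicate 1 the sign of Cyp2c55 turned, to -0.10 (adjusted p = 0.867), and Cyp2c39 was -0.09. Ctrl replicate 1 was the highest control library for Cyp2c29, Cyp2c37, Cyp2c38, Cyp2c44, Cyp2c50 and Cyp2c54 and the lowest for Cyp2c40 and Cyp2c55. The authors' deposited table has 3 lower members at this age, Cyp2c29, Cyp2c37 and Cyp2c40, with log2 fold changes of -0.77, -1.19 and -0.50.

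At 10 weeks, after the high-fat diet, 9 of the 10 members fell in STAM livers and none rose, where 47.8% of all genes tested were called, 25.3% higher and 22.5% lower. The median log2 fold change of the members was -2.45, beside 0.05 over all genes tested, and the groups did not overlap for 8 members, all lower, as for 16.3% of all genes lower and 16.8% higher. The same 9 members are called lower in the authors' deposited table. They were also called lower without Ctrl replicate 1, with log2 fold changes of -4.07 to -0.95, and without STAM replicate 5, with -4.12 to -0.82.

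The 3 largest falls were in Cyp2c69, Cyp2c29 and Cyp2c40. Cyp2c69 was at 2.50, 1.95, 2.61, 4.35 and 2.13 CPM in STAM against 88.1, 49.8, 63.1, 45.3 and 19.5 CPM in Ctrl, 18.3-fold lower (log2 fold change -4.19, SE 0.38, limma adjusted p = 2.19e-05). Cyp2c29, the leading member of the Ctrl livers, was at 154, 114, 191, 163 and 64.2 CPM in STAM against 1789, 2073, 2369, 2340.2 and 1909 CPM in Ctrl, 16.2-fold lower (log2 fold change -4.02, SE 0.26, limma adjusted p = 1.64e-06). Cyp2c40 was at 9.71, 8.82, 12.5, 14 and 9.73 CPM in STAM against 192, 84.4, 107, 119 and 62.6 CPM in Ctrl, 9.75-fold lower (log2 fold change -3.29, SE 0.27, limma adjusted p = 1.23e-05). For each of these genes the highest STAM library was well below the lowest Ctrl library, though Ctrl replicate 5 was low for Cyp2c69 and Cyp2c40 among the controls.

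The epoxygenases Cyp2c54 and Cyp2c50 and their close copy Cyp2c37 all fell as well. Cyp2c54 was at 93.6, 61.7, 125, 66.7 and 82.96 CPM in STAM against 394, 744, 556, 671 and 678 CPM in Ctrl, 7.14-fold lower (log2 fold change -2.84, SE 0.22, limma adjusted p = 4.69e-06). Cyp2c50 was at 322, 169, 393, 252 and 273 CPM in STAM against 1007, 1368, 1268, 1555 and 1337 CPM in Ctrl, 4.77-fold lower (log2 fold change -2.25, SE 0.19, limma adjusted p = 4.6e-06). Cyp2c37 was at 142, 81.6, 171, 114 and 90.9 CPM in STAM against 434, 749, 606, 679.8 and 763 CPM in Ctrl, 5.48-fold lower (log2 fold change -2.45, SE 0.22, limma adjusted p = 1.16e-05). In all 3 genes STAM replicate 3 was the highest STAM library and Ctrl replicate 1 the lowest Ctrl library, and the groups stayed apart. Cyp2c55 was at 0.784, 2.05, 1.04, 2.23 and 1.32 CPM in STAM against 7.59, 5.59, 7.70, 7.46 and 9.75 CPM in Ctrl, 5.41-fold lower (log2 fold change -2.44, SE 0.27, limma adjusted p = 1.33e-05), with 20 to 45 reads in STAM and 115 to 192 in Ctrl.

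The smallest differences were those of the remaining 3 members. Cyp2c44 was at 339, 265, 342, 264 and 222 CPM in STAM against 457, 521, 560.4, 611 and 504 CPM in Ctrl, 1.87-fold lower without overlap (log2 fold change -0.90, SE 0.12, limma adjusted p = 6.38e-05). Cyp2c38 was at 51.2, 42.4, 55.6, 44.9 and 61.3 CPM in STAM against 53.4, 157, 115, 67.2 and 105 CPM in Ctrl, 1.83-fold lower (log2 fold change -0.87, SE 0.27, limma adjusted p = 0.0243). Ctrl replicate 1 of 10 weeks lay among the STAM libraries, and the call was lost under total-read scaling (adjusted p = 0.123) and when Ctrl replicate 3 or 5 or STAM replicate 2 or 4 was left out (adjusted p = 0.0516 to 0.0564). Cyp2c39 was at 2.02, 2.64, 3.28, 3.27 and 3.71 CPM in STAM against 2.11, 4.61, 1.96, 2.16 and 4.32 CPM in Ctrl (log2 fold change 0.05, SE 0.27, limma adjusted p = 0.894, 95% interval -0.53 to 0.63).

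**Figure D2:**
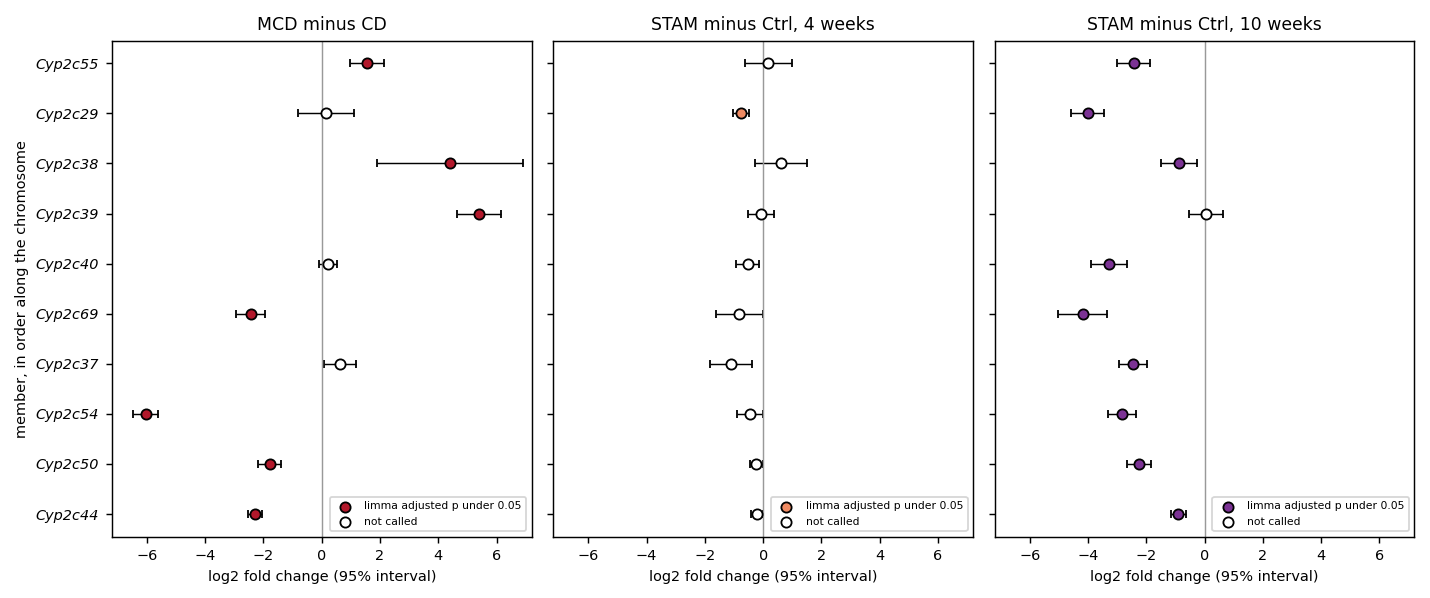
Log2 fold change of each member with its 95% interval in the 3 comparisons, in the order along the chromosome (filled: limma adjusted p under 0.05; open: not called). MCD against CD shows values on both sides of 0, from -6.04 for Cyp2c54 to 5.41 for Cyp2c39, whereas at 10 weeks 9 members are below 0 and Cyp2c39 is at 0.05.

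The ages come from separately scaled tables. Whether the STAM effect differed between the ages was tested as the effect at 10 weeks minus the effect at 4 weeks. It was more negative at 10 weeks in 9 of 10 members, where 20.0% of all 15022 genes in the fit were called, 8.89% more positive and 11.2% more negative. The differences were largest in Cyp2c69 (-3.38, SE 0.54, limma adjusted p = 0.000524) and Cyp2c29 (-3.24, SE 0.30, adjusted p = 2.95e-06), and smallest among the called in Cyp2c44 (-0.69, SE 0.16, adjusted p = 0.00423). Cyp2c37 (-1.35, adjusted p = 0.0259) and Cyp2c38 (-1.49, adjusted p = 0.0427) were near the threshold. Without Ctrl replicate 1 of 4 weeks they were -1.61 (adjusted p = 0.00246) and -1.86 (adjusted p = 0.00157). Several other settings ended those calls. For Cyp2c38 leaving out any of 14 other libraries did so (adjusted p up to 0.0799). For Cyp2c37 leaving out STAM replicate 2 of 10 weeks (0.0501) or Ctrl replicate 2 of 4 weeks (0.0512) did so. Cyp2c39 had a difference of 0.12 (95% interval -0.62 to 0.86).

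The MCD and the 10-week STAM tables differ in control group, duration and scaling, which cannot be told apart from the model. To set the models against each other, the 10-week STAM effect was subtracted from the MCD effect, and no library is in both. This difference was called in 9 of 10 members, 7 higher and 2 lower, where 27.9% of all 14986 genes in the fit were called, 12.9% higher and 15.0% lower. The 2 lower were Cyp2c54 (-3.21, SE 0.32, limma adjusted p = 2.65e-06) and Cyp2c44 (-1.40, SE 0.17, adjusted p = 5.91e-06), which were lower in both models and more so in MCD. Cyp2c69, also lower in both, had the smaller log2 fall in MCD (1.75, adjusted p = 0.00857), but from a lower control level. Its mean was 6.46 CPM in CD and 1.17 CPM in MCD, against 53.2 CPM in Ctrl and 2.71 CPM in STAM at 10 weeks. The largest positive values were those of Cyp2c39 (5.36), Cyp2c38 (5.28), Cyp2c29 (4.15) and Cyp2c55 (3.99), and Cyp2c40 and Cyp2c37 had 3.51 and 3.07. Cyp2c50 fell in both and was not called different (0.47, 95% interval -0.15 to 1.09, adjusted p = 0.258).

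Summed over the 10 members, the family was at 837 ± 139 CPM in MCD and 1855 ± 282 CPM in CD (SD, n = 4 each), a log2 difference of -1.15, or -0.73 under total-read scaling. At 4 weeks the sum was 3207 ± 381 CPM in STAM and 4808 ± 805 CPM in Ctrl, and at 10 weeks 981 ± 226 CPM in STAM and 5465 ± 634 CPM in Ctrl (SD, n = 5 each), log2 differences of -0.58 and -2.50. The members' shares of the sum were also calculated. Cyp2c54 made up 0.514 ± 0.0481% of the family in MCD and 15.2 ± 1.24% in CD, while Cyp2c29 made up 31.2 ± 1.34% in MCD and 13.9 ± 6.00% in CD and Cyp2c37 17.1 ± 1.21% and 5.08 ± 0.990%. In STAM livers of 10 weeks Cyp2c29 made up 13.8 ± 3.59% of the family, against 38.4 ± 2.78% in Ctrl, and Cyp2c44 29.6 ± 3.55%, against 9.73 ± 0.521%. These shares are of normalised reads, not corrected for length, and no test was made of them. The sum leaves out Cyp2c67, Cyp2c68 and Cyp2c70. Their mean levels were 1233, 343 and 893 CPM in CD and 72.8, 402 and 213 CPM in MCD. At 10 weeks they were 500, 310 and 644 CPM in Ctrl and 151, 66.7 and 46.1 CPM in STAM.

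**Figure D3:**
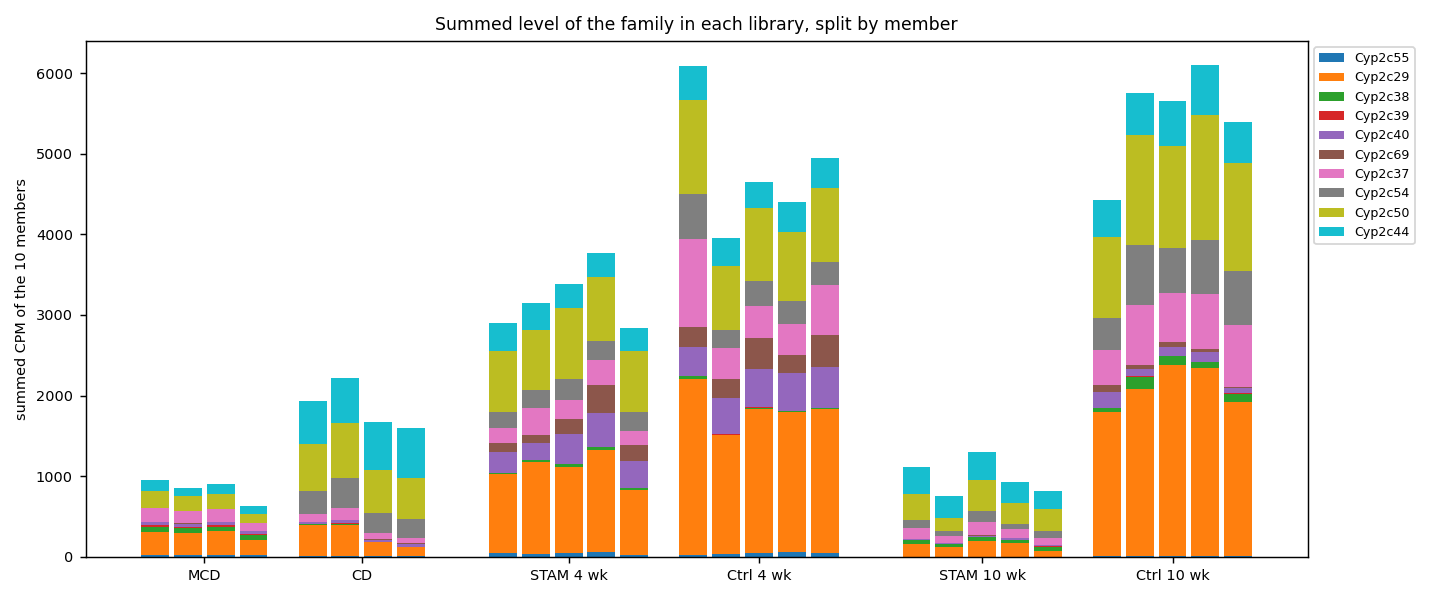
Stacked bars give the summed CPM of the 10 members in each library, split by member, with libraries in the order of their replicate numbers. The 10-week STAM libraries sum to 749 to 1298 CPM against 4424 to 6098 CPM in Ctrl, and Cyp2c29 is the largest block in every Ctrl library of both ages.

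Ratios of reads within a library do not depend on how the libraries were scaled, and they show where close copies parted. Reads of Cyp2c54 amounted to 2.72%, 2.37%, 2.44% and 2.75% of the Cyp2c50 reads in the MCD libraries, against 48.3%, 56.01%, 45.96% and 47.2% in the CD libraries. Cyp2c37 was higher relative to the same gene, at 82.6% to 89.7% of Cyp2c50 in MCD against 13.7% to 21.2% in CD. At 10 weeks the Cyp2c54 ratio was 26.5% to 36.6% in STAM against 39.2% to 54.4% in Ctrl, and the Cyp2c37 ratio 33.3% to 48.4% against 43.1% to 57.05%, whose ranges overlapped. At 4 weeks the Cyp2c54 ratio was 26.3% to 31.2% in STAM against 28.8% to 48.1% in Ctrl, again with overlap, and the Cyp2c37 ratio 22.9% to 46.1% against 45.1% to 92.9%.

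Cyp2c69, whose promoter shown above is nearly that of Cyp2c40, amounted to 2.26%, 3.63%, 2.84% and 3.69% of the Cyp2c40 reads in MCD, against 17.8%, 15.4%, 23.4% and 22.2% in CD. In STAM livers of 10 weeks the ratio was 20.9% to 31.1%, against 31.2% to 59.1% in Ctrl, ranges without overlap but nearly touching, and at 4 weeks 39.5% to 82.9%, against 49.2% to 81.9%. Because these genes share long stretches of sequence, part of each ratio may rest on how shared reads were assigned, which was not tested. Cyp2c39 was 31.1% to 36.5% of Cyp2c38 in MCD and 6.84% to 57.1% in CD, where few reads made the ratio wide, and 3.94% to 7.28% in STAM against 1.70% to 4.11% in Ctrl at 10 weeks. Relative to Cyp2c29, their nearest relative among the members outside the pair, Cyp2c38 was 19.2% to 28.8% in MCD against 0.408% to 3.45% in CD. At 10 weeks the same ratio was 27.6% to 95.5% in STAM against 2.87% to 7.59% in Ctrl. Cyp2c29 itself was not called between the diets and fell at 10 weeks, so the ratio moved with the Cyp2c38 level in the first table and mainly with the Cyp2c29 level in the second.

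**Figure D4:**
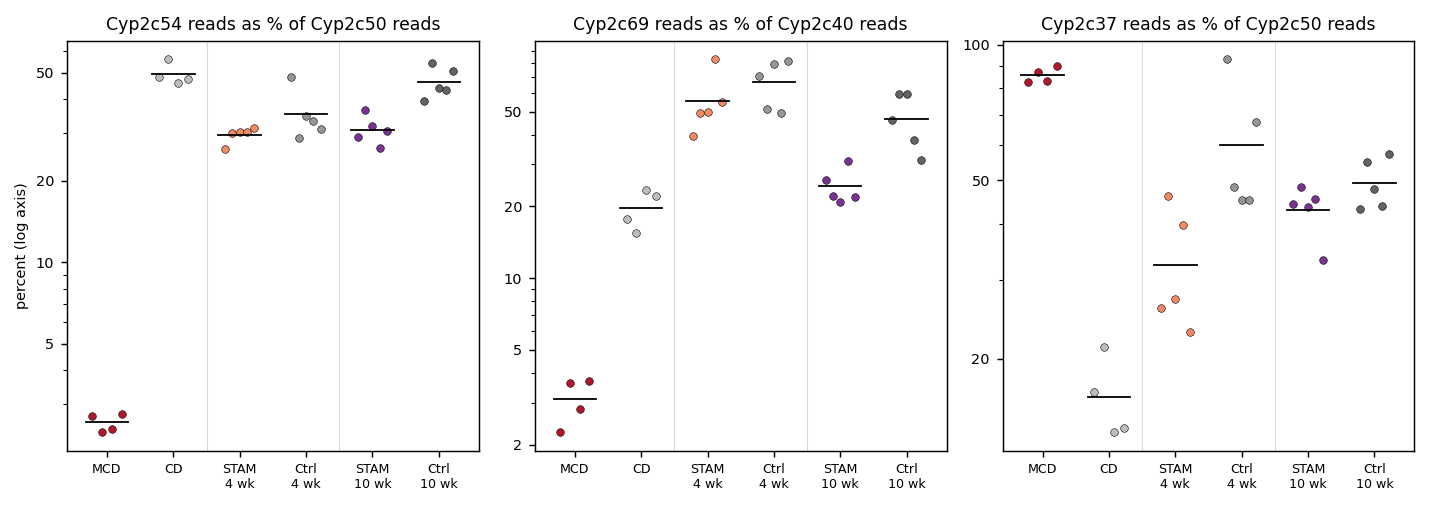
Reads of 1 gene as a percentage of the reads of a close copy, on log axes, with a point per library in the 6 groups (bar: group mean). For Cyp2c54 over Cyp2c50 the MCD libraries lie at 2.37% to 2.75% and all other libraries at 26.3% or more, and for Cyp2c37 over Cyp2c50 the MCD libraries lie at 82.6% to 89.7% against 13.7% to 21.2% in CD.

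The other Cyp2c genes of the region were Cyp2c65, Cyp2c66, Cyp2c67, Cyp2c68 and Cyp2c70. Cyp2c67 was -4.04 in MCD against CD on the log2 scale (limma adjusted p = 8.61e-09) and -1.69 at 10 weeks (adjusted p = 1.04e-05). Cyp2c70, a bile acid hydroxylase in mice, had -2.09 (adjusted p = 0.000364) and -3.68 (adjusted p = 8.28e-06). Cyp2c68 was not called between the diets (0.25, adjusted p = 0.197), but was higher under total-read scaling (0.67, adjusted p = 0.000973) and quantile normalization (0.78, adjusted p = 0.000793). It fell in STAM at 4 weeks (-0.53, adjusted p = 0.00688) and at 10 weeks (-2.21, adjusted p = 2.97e-08). All 3 of those tested at 10 weeks were therefore lower, as were 9 of the 10 members. Cyp2c65 had 5, 18, 6 and 5 reads in MCD and 2, 0, 2 and 1 in CD and was called higher (2.30, adjusted p = 0.0366), though not under quantile normalization (1.65, adjusted p = 0.152). At 4 weeks it had 3, 4, 4, 2 and 4 reads in STAM and 1, 0, 0, 1 and 0 in Ctrl and was called higher (2.77, adjusted p = 0.0225), again not under quantile normalization (2.31, adjusted p = 0.0759); with so few reads these fitted values depend on the prior. It had 0 reads in every library of 10 weeks, and Cyp2c66 had a single read in each of 2 STAM libraries of 4 weeks and no read elsewhere. Since Cyp2c67, Cyp2c68, Cyp2c69 and Cyp2c40 are near copies, their summed level was also taken: its log2 difference was -1.63 in MCD against CD and -2.05 at 10 weeks.

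Of the 4 genes that pass electrons to microsomal P450 enzymes, P450 reductase (Por) rose in MCD (1.51 on the log2 scale, limma adjusted p = 0.000731) and in STAM at 10 weeks (0.64, adjusted p = 0.0105). The other 3, the cytochrome b5 genes Cyb5a and Cyb5b and the reductase Cyb5r3, fell in MCD (-0.49, -1.01 and -0.99), and Cyb5a and Cyb5b fell at 10 weeks (-0.54 and -0.91). The Cyb5a call was lost under quantile normalization in both (0.17 and -0.23) and under total-read scaling in MCD (-0.07). Of 4 epoxide hydrolases, Ephx2, the soluble enzyme that clears epoxyeicosatrienoic acids, was the 1 called in MCD (-1.18, adjusted p = 2.61e-05). Ephx1 was the 1 called at 10 weeks (0.48, adjusted p = 0.0261), when Ephx2 had 0.04; total-read scaling and quantile normalization called Ephx2 higher as well (0.33 and 0.32). The Cyp2j family holds other epoxygenases, and of its 4 tested genes 3 fell in MCD (Cyp2j5 -1.62, Cyp2j6 -0.72, Cyp2j9 -1.77) and 2 at 10 weeks (Cyp2j5 -1.12, Cyp2j6 -0.50). The median log2 fold changes in MCD were -0.74 for the electron donors, -0.69 for the hydrolases and -1.17 for the Cyp2j genes, and at 10 weeks -0.28, 0.34 and -0.58. Under total-read scaling they were -0.32, -0.27 and -0.74 in MCD and 0.02, 0.55 and -0.29 at 10 weeks, and under quantile normalization -0.09, -0.14 and -0.80 in MCD and 0.01, -0.16 and -0.53 at 10 weeks, so the sign at 10 weeks turned for the electron donors under both and for the hydrolases under quantile normalization. Total-read scaling left 1 electron donor higher and 2 lower in MCD, and 2 higher and 2 lower at 10 weeks, while the Cyp2j counts were as given. At 4 weeks 0 of 4 genes were called in each of these lists, though total-read scaling called 1 hydrolase higher, Ephx1 (0.59, adjusted p = 0.0481). Of 11 other enzymes of arachidonic acid, 4 rose and 1 fell in MCD, among them the omega-hydroxylases Cyp4a14 (5.30) and Cyp4f14 (-2.89), and 1 rose and 1 fell at 10 weeks, the lipoxygenase-activating protein gene Alox5ap (0.65) and Cyp4f14 (-1.56). The median of the 11 was 0.78 in MCD and 0.65 at 10 weeks, with 22.6% and 25.3% of all genes called higher. Total-read scaling called 9 of them higher in MCD and 3 at 10 weeks, where it called 49.6% and 45.8% of all genes higher. Under quantile normalization 2 rose in MCD and 0 at 10 weeks, with medians of 0.24 and 0.22, and Alox5ap was not called (0.14).

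Among 9 genes of retinoid metabolism, the pathway to which Cyp2c39 also belongs, 3 rose and 1 fell in MCD, and 2 rose and 5 fell in STAM at 10 weeks, with medians of 0.26 and -0.44; under total-read scaling 5 rose and 1 fell in MCD and 2 rose and 3 fell at 10 weeks. The retinoic acid hydroxylases Cyp26a1 and Cyp26b1 were not called in MCD (0.13 and 0.26) and fell at 10 weeks (-5.71, adjusted p = 4.16e-05, and -2.16, adjusted p = 0.00156). Of 15 transcription factors of hepatic P450 genes, 1 rose and 10 fell in MCD and 2 rose and 7 fell at 10 weeks, but under total-read scaling 3 rose and 5 fell in MCD and 6 rose and 2 fell at 10 weeks, and under quantile normalization 1 rose and 6 fell in MCD and 3 rose and 4 fell at 10 weeks. CAR itself (Nr1i3), which drives Cyp2c29, was not called in MCD (0.32, adjusted p = 0.201) and was lower at 10 weeks (-0.81, adjusted p = 0.0254). Under total-read scaling it was called higher in MCD (0.74) and not called at 10 weeks (-0.52), and quantile normalization gave the same calls (0.51 and -0.60). PXR (Nr1i2) was called in neither (-0.27 and -0.10). Hnf4a, a master regulator of hepatocyte genes, was called lower in both under the authors' scaling (-0.43 and -0.51) but in neither under total-read scaling (-0.0016 and -0.22) or quantile normalization (0.29 and -0.22). Among genes known to be expressed more in female livers outside the family, 7 of 9 rose in MCD (Cyp2b9 8.24, Cyp2a4 6.67) and 2 of 9 at 10 weeks, on the authors' scaling. Of all genes tested, 22.6% were called higher in MCD and 25.3% at 10 weeks. All 8 of the male-biased genes fell in MCD (Elovl3 -6.49, Cyp4a12a -4.31), while at 10 weeks 3 fell and 1 rose, where 20.1% and 22.5% of all genes were called lower. At 4 weeks 2 of the 9 female-biased genes rose and 3 fell, and 2 of the 8 male-biased genes rose, where 6.52% of all genes were called higher and 3.27% lower. Of the members named above as female-biased, Cyp2c40 was not called in MCD and Cyp2c69 fell, and both fell at 10 weeks. The sex bias of the other members, among them Cyp2c38 and Cyp2c39, which rose in MCD, was not examined.

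Other cell markers moved with these comparisons. Of 8 hepatocyte genes 1 rose and 6 fell in MCD, where they summed to 77817 to 102266 CPM against 93365 to 114308 CPM in CD. Of the same 8, 5 fell at 10 weeks, where they summed to 51091 to 66548 CPM in STAM against 88909 to 113822 CPM in Ctrl. At 4 weeks 1 fell. On the authors' scaling the sums were then 120386 to 135812 CPM in STAM against 146482 to 166889 CPM in Ctrl, without overlap. Of 12 pericentral genes, which mark the zone where most P450 enzymes are expressed, 2 rose and 3 fell in MCD, with sums of 7585 to 12518 CPM against 10926 to 13629 CPM in CD. At 10 weeks 2 rose and 5 fell, with sums of 7169 to 11894 CPM in STAM against 11581 to 13971 CPM in Ctrl. At 4 weeks 1 rose and 1 fell, and the sums of 5752 to 6840 CPM in STAM and 8099 to 9445 CPM in Ctrl did not overlap either. Under total-read scaling 2 hepatocyte genes rose and 6 fell in MCD and 3 fell at 10 weeks. The pericentral counts were 7 higher and 2 lower in MCD and 5 higher and 3 lower at 10 weeks. Quantile normalization gave 1 hepatocyte gene higher and 3 lower in MCD, and 1 higher and 2 lower at 10 weeks. Its pericentral counts were 6 higher and 2 lower in MCD, and 3 higher and 4 lower at 10 weeks. At 4 weeks both settings called 0 hepatocyte genes, and 2 pericentral genes higher and 1 lower. Recruited macrophage markers, of which 5 of 6 rose in MCD and 6 of 6 at both ages, summed to 214 to 303 CPM in MCD; CD libraries had 98.2 to 122 CPM. Their sums were 122 to 171 CPM in STAM against 49.6 to 79.4 CPM in Ctrl at 4 weeks, and 132 to 421 CPM in STAM against 38.2 to 59.5 CPM in Ctrl at 10 weeks. Stellate cell markers rose in 5 of 7 genes in MCD and in 4 of 7 at 10 weeks, where 1 fell, cholangiocyte markers in 4 of 5 in both and in 3 of 5 at 4 weeks, and Kupffer cell markers in 2 of 5 in MCD, 4 of 5 at 4 weeks and 1 of 5 at 10 weeks. Periportal genes fell in 7 of 9 in MCD and in 3 of 9 at 10 weeks, where 1 rose, and sinusoidal endothelial genes fell in 2 of 5 in MCD and in 3 of 5 at 4 weeks, with 1 higher and 1 lower at 10 weeks. Of 5 lymphocyte markers 0 were called in MCD and 1 rose at 10 weeks, and the kidney tubule markers summed to at most 12.0 CPM in any library. Some of these counts moved with the scaling: quantile normalization left 1 of 5 cholangiocyte markers higher in MCD and 1 of 5 at 10 weeks, and total-read scaling gave 2 of 5 sinusoidal endothelial genes higher and 0 lower in both. Spp1 was in both the recruited macrophage and the cholangiocyte list, so the counts of those lists share a gene. The part of all these cell types in the Cyp2c values was not tested.

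For the 3 members with the highest level per kb over the 14 control libraries, the 3 genes with the nearest profile were taken from 14847. A profile is the log2 CPM in each of the 28 libraries minus the control mean of its table, and the measure is the root mean square difference. For Cyp2c29 they were Cyp2c40 (0.61), Cyp2c37 (0.77) and Pcp4l1 (0.85), where the median gene was at 1.83. For Cyp2c50 they were Cyp1a2 (0.37), Sdr9c7 (0.37) and Plekhb1 (0.38), with a median of 1.27, and the list for Cyp2c37 was Cyp2c68 (0.49), Prlr (0.50) and Slc26a4 (0.58), with a median of 1.30. Within the family the nearest pairs were Cyp2c29 with Cyp2c40 (0.61) and Cyp2c44 with Cyp2c50 (0.64), and the farthest was Cyp2c39 with Cyp2c54 (4.52). The libraries share table-wise scaling, so these distances are descriptions.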

How the data were processed

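Liver RNA of 28 samples was sequenced, with groups and replicate numbers taken from the sample titles. Per the labels' protocols, RNA was purified from Trizol lysates and made into stranded poly(A) libraries read from both ends. Per the submitters' processing notes, reads were aligned with STAR 2.4.2a to mm10. The labels do not name the read counter, the annotation or the authors' test. Values deposited by the authors are log2 CPM, scaled within each table, with a prior of 0.25 reads that the values themselves show; subtracting it gave whole reads within 0.05 reads for every value. The authors' deposited tables also hold log2 fold changes, p-values and adjusted p-values. Each library held 16.2 to 25.9 M recovered reads. Intervals cover counting or replicate error only, since reads carried no molecular identifiers in the sources used here. Every replicate pair differed by more than sampling noise (chi-square of at least 12.1 per degree of freedom). The labels do not say that each sample is its own mouse, so p-values measure the spread between samples, which may be technical.

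A gene was tested with limma 3.58.1 (R 4.3.3, mean-variance trend, robust) on log2 CPM, within a table, if its mean lay above the 25th percentile, and called at a two-sided Benjamini-Hochberg adjusted p under 0.05 over all genes tested. Differences between effects used 1 fit over 4 groups. Folds are the log2 fold change taken off the log scale, so they compare mean log2 values and are not ratios of mean CPM. On simulated data with 200 changed genes added to each comparison, 100% of 4-fold changes were recovered. Of 2-fold changes, 74%, 85% and 87% were recovered for the MCD, 4-week and 10-week comparisons. The changed genes were drawn only from those with more reads, and no other gene changed. Every gene was given the same dispersion (spread between replicates beyond counting noise). These rates do not cover members with few reads or widely spread replicates. Alternatives were total-read scaling, quantile normalization, a prior of 2 reads, no filter, voom, a replicate block and leaving out each library. Replicate numbers did not pair the samples, with correlations of -0.12 to 0.01.

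The members, the gene lists and the tests were chosen with earlier results of these data known. The genes named are the 10 members, the genes of the lists and the 3 nearest profiles of 3 members. Gene positions are those of the tables after each start was raised by 1, which made 10883 of 19400 genes match RefSeq starts, whereas 688 matched as deposited. Transcript identity came from GENCODE transcripts and promoters from RefSeq; protein sequences were not used here.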

Additional observations from a re-analysis of the deposited data

Results flagged for a closer look

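Of 60 sets of log2 CPM values, 1 for each member in each group, 3 had a library whose gap to its neighbours was large for the range of its group, a kind of flag that chance alone gives to about 1 group in 20. Cyp2c37 was lowest in MCD replicate 4, at 6.61. Ctrl replicate 1 of 4 weeks was the highest control for Cyp2c38, at 5.16, and the lowest for Cyp2c40, at 8.48. All libraries of the series held 16.2 to 25.9 M reads.

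The STAM effect at 10 weeks minus that at 4 weeks was tested in limma and passed an adjusted p under 0.05 in 9 members, where 20.0% of all genes were called, with log2 differences of -3.38 for Cyp2c69, -3.24 for Cyp2c29, -2.75 for Cyp2c40, -2.61 for Cyp2c55, -2.38 for Cyp2c54, -2.02 for Cyp2c50, -1.49 for Cyp2c38, -1.35 for Cyp2c37 and -0.69 for Cyp2c44. The MCD effect less the 10-week STAM effect passed in 9 members too, where 27.9% of all genes were called, with 5.36 for Cyp2c39, 5.28 for Cyp2c38, 4.15 for Cyp2c29, 3.99 for Cyp2c55, 3.51 for Cyp2c40, 3.07 for Cyp2c37, 1.75 for Cyp2c69, -1.40 for Cyp2c44 and -3.21 for Cyp2c54.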

How the results depend on the processing

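Direction and call were as reported under every alternative for Cyp2c54, Cyp2c44, Cyp2c69, Cyp2c50, Cyp2c39, Cyp2c38 and Cyp2c55 in MCD against CD, for Cyp2c29 at 4 weeks and for all called members but Cyp2c38 at 10 weeks. Replicate numbers did not pair the samples; with the replicate number as a block, 848 genes instead of 1500 were called at 4 weeks, Cyp2c37 passed in MCD (0.62, adjusted p = 0.0121), and the age differences of Cyp2c37 (adjusted p = 0.104) and Cyp2c38 (0.076) did not. Leaving out 1 library gave 1 to 3 called members at 4 weeks and 982 to 1821 genes, 982 without STAM replicate 1. The ranges of called members were 7 to 8 in MCD, 8 to 9 at 10 weeks, 7 to 9 for the age difference and 9 to 9 for the model difference. The age difference of Cyp2c37 missed the threshold under quantile normalization (0.0615), and that of Cyp2c38 under quantile normalization (0.0691) and total-read scaling (0.0768). Under total-read scaling the MCD differences of summed levels were -0.73 for the family, -1.18 for Cyp2c37, Cyp2c50 and Cyp2c54, 0.43 for Cyp2c40 and Cyp2c69, and -1.20 with Cyp2c67 and Cyp2c68 added, beside -1.15, -1.60, 0.01 and -1.63. Some differences that were not called changed sign: Cyp2c39 under total-read scaling at 4 weeks (0.0064) and under quantile normalization at 10 weeks (-0.47) and for the age difference (-0.28). Leaving out 1 library gave -0.22 to 0.38 for Cyp2c29 in MCD, -0.10 to 0.38 for Cyp2c55 at 4 weeks, and for Cyp2c39 -0.18 to 0.091 at 4 weeks, -0.081 to 0.23 at 10 weeks and -0.042 to 0.30 for the age difference. The causes were not tested. Low reads limit Cyp2c39 and Cyp2c38 in CD, Cyp2c69 in MCD and Cyp2c55 in STAM at 10 weeks.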
